A study of Mus musculus with 27 samples.

Results

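The Kruppel-like factors are a family of zinc finger transcription factors. Described here are the 9 family genes Klf2, Klf3, Klf4, Klf6, Klf7, Klf9, Klf10, Klf11 and Klf13, taken by gene symbol from a table of 45070 genes that also held 8 other genes of the family. Their nascent transcripts were followed in BMDMs, macrophages that were grown out of the bone marrow of male wild-type C57/BL6 mice aged 6 to 8 weeks. All cells, the untreated ones included, had first been kept for 1 h with DMSO, the solvent of kinase inhibitors used elsewhere in the study. They were then left untreated or were stimulated for 0.5, 1, 2 or 4 h with lipopolysaccharide (LPS, a bacterial cell wall component, at 10 ng/ml) or with interleukin-4 (IL-4, at 10 ng/ml). Each of the 9 groups had 3 replicates, 27 samples in all. RNA attached to chromatin was sequenced, which is rich in transcripts that are still being made. The values are the authors' normalised read counts per gene. Nothing in the sources used here says whether replicates came from separate mice or cultures, so p-values measure the spread between these samples, part of which may be technical.

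Members of this family bind GC-rich DNA, the GC box and the related CACCC element, through zinc fingers at the end of the protein, and differ mainly in the part that recruits co-activators or co-repressors. Several are early-response genes, whose own transcription changes within minutes to hours of a signal. In macrophages Klf2 is known as a brake on inflammatory activation, Klf4 as a partner of STAT6 in the response to IL-4 and Klf6 as a co-activator of NF-kappaB target genes.

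All 8 macrophage markers looked up passed the filter on low values (summed value 10027 to 11141 in untreated, 11122 to 19679 in LPS and 10976 to 14044 in IL-4 samples), and none of the markers of T cells, B cells, neutrophils, mast cells or erythroid cells passed it. The 5 neutrophil markers summed to 1 to 2 in untreated, 1 to 28 in LPS and 0 to 9 in IL-4 samples, with S100a8 up to 16, S100a9 up to 14 and Ly6g at 0 throughout. Cd3e (T cells) was also at 0 throughout. The 3 dendritic markers summed to 2 to 6 in untreated, 5 to 96 in LPS and 10 to 22 in IL-4 samples, with Zbtb46 up to 90, Flt3 up to 17 and Xcr1 at 0. The 3 endothelial markers summed to 3 to 149 and the 3 fibroblast markers to 28 to 207 over all samples. The filter was passed by 2 dendritic, 1 endothelial and 2 fibroblast markers, with Col1a2 up to 128 and Col1a1 up to 95. The endothelial sum was 5 to 11 in untreated and 21 to 149 in IL-4 samples, mostly Pecam1 (2 to 149), while Cdh5 reached 5 at most and Tie1 was at 0. Klf2 and Klf4 are also expressed in endothelial cells, and the part of endothelial, dendritic, neutrophil or other cells in the members' values was not tested. In such bulk samples fewer cells of a type and less RNA per cell cannot be told apart. The normalised values of 1 sample summed to 2469768 to 2790981 in the untreated and IL-4 groups and 3571492 to 4058199 in the LPS groups. These sums are not sequencing depths, which are unknown here. The 9 members took up 0.0582% of the untreated sum and 0.179% at LPS 0.5 h.

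Among 620 genes with a mean of at least 1000, replicates 2 and 3 were closer to each other (SD of the log2 ratio 0.138 to 0.287 per group) than either was to replicate 1 (0.370 to 0.496). Replicate 1 held the highest of the 3 values in 9 of 9 groups for Klf7 and in 8 of 9 for Klf13. Except for Klf4, calls that were lost without 1 replicate number are given beside the result, for some steps between times as counts.

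In GRCm38 the 9 genes lie on 9 chromosomes: Klf2 at chr8:72319062-72321654, plus strand, Klf3 at chr5:64803521-64832901, plus strand, Klf4 at chr4:55527137-55532475, minus strand, Klf6 at chr13:5861489-5870393, plus strand, Klf7 at chr1:64035663-64121389, minus strand, Klf9 at chr19:23141226-23168129, plus strand, Klf10 at chr15:38291464-38300711, minus strand, Klf11 at chr12:24651371-24662782, plus strand and Klf13 at chr7:63886351-63938915, minus strand. The promoters of 8 of them (all but Klf10) were found among 32851 RefSeq promoters (GRCm38.p6), each taken as the 250 bases before the annotated start. Those of 4 members are shown because their genes carry the results that follow. Klf6 and Klf7 rose most after LPS, Klf4 was detected almost only after IL-4, and Klf2 differed between the stimuli at 4 h. Capitals mark every GC box (GGGCGG, the classical site of the family), CACC box (CACCC) and MEF2 site, searched on both strands.
Klf6 (chr13:5861239-5861488, plus strand): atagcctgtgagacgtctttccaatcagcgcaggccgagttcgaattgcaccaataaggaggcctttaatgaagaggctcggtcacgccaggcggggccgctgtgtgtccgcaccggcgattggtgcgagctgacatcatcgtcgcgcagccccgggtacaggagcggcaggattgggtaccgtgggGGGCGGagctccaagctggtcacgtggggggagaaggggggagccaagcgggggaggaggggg
Klf7 (chr1:64121390-64121639, minus strand): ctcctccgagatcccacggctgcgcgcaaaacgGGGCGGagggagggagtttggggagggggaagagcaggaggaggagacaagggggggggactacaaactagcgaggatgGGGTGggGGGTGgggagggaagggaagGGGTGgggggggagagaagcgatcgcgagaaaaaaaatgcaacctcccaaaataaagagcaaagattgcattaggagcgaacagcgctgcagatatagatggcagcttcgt
Klf4 (chr4:55532476-55532725, minus strand): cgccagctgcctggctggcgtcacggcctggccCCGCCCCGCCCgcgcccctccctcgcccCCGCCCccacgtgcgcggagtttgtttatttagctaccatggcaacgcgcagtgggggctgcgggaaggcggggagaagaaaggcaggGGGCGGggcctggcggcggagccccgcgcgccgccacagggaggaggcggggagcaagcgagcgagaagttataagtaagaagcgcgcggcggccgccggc
Klf2 (chr8:72318812-72319061, plus strand): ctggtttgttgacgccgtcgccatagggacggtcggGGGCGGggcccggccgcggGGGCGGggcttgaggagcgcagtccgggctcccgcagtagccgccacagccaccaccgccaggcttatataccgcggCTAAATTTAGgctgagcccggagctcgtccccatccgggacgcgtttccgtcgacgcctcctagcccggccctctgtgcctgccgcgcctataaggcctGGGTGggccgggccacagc

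The Klf6 stretch held 1 GC box and no CACC box, that of Klf7 held 1 and 3, that of Klf4 held 4 and 0, and that of Klf2 held 2 and 1. Klf3, which held 6 GC boxes and 5 CACC boxes, had the most of either motif, and Klf11 held 4 GC boxes and Klf13 3. A GC box stood in 32.7% of all promoters and a CACC box in 52.0%, and 7 of the 8 member promoters held a GC box (not Klf9). The GC content of the 8 stretches was 59.2 to 78.4%, against a median of 52.4% over all promoters. The Klf2 stretch was the one with a MEF2 site, 118 bases before the start, a motif found in 0.508% of all promoters. MEF2 factors, activated by the kinase ERK5, are known to drive Klf2 in endothelial cells. The Klf9 stretch held an AP-1 site (TGANTCA, in 6.75% of promoters) that overlapped its CACC box. None of the 8 held the kappaB site (3.90% of promoters), the CArG box (1.47%), the STAT6 site (5.85%), the cAMP response element (TGACGTCA, 1.55%) or the EGR site (GCGTGGGCG, 0.536%). These are matches of letters, not measured binding.

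Before stimulation the members spanned a wide range of levels. Per kilobase of gene span, which suits chromatin RNA where introns are read, the untreated level was highest for Klf6 (25.6 ± 2.56 normalised read counts per kb, SD, n = 3), followed by Klf3 (15.2 ± 0.85), Klf13 (10.0 ± 0.30), Klf2 (4.11 ± 0.97), Klf10 (2.49 ± 0.19), Klf7 (2.43 ± 0.81), Klf11 (1.46 ± 0.36), Klf9 (0.64 ± 0.14) and Klf4 (0.50 ± 0.39). Klf10 and Klf7 lay within their SDs of each other, as did Klf9 and Klf4. Per kilobase of cDNA the order changed, with Klf7 first (155 ± 51.4 per kb of cDNA), since its gene spans 85727 bases for a cDNA of 1344. Whether the counts included introns was not given in the sources used here, so the order between genes depends on the length chosen, while changes within a gene do not.

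**Figure D1:**
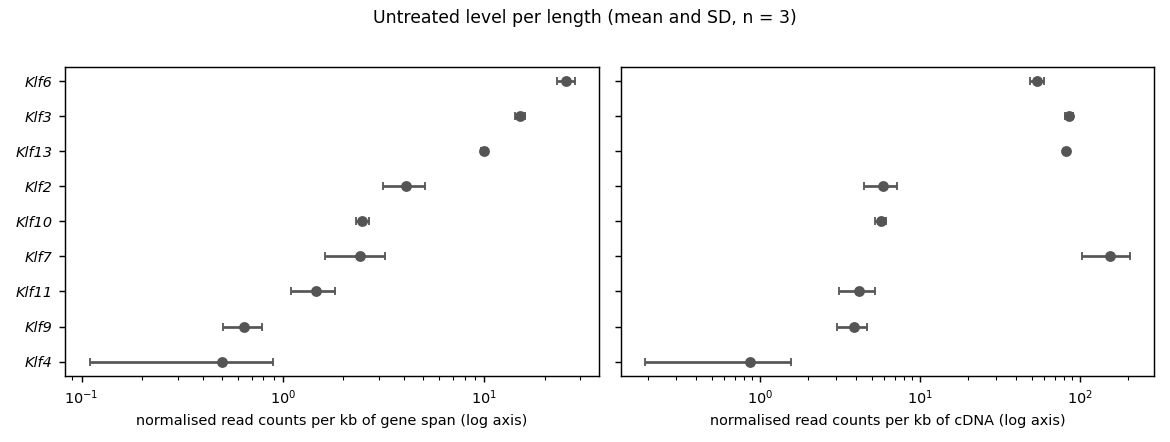
Untreated level of the 9 genes in normalised read counts per kb of gene span (left) and per kb of cDNA (right), log axes, points are means and bars SD (n = 3). Klf6 is first by span at 25.6 and Klf7 first by cDNA at 155, while Klf4 is last on both scales.

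**Figure D2:**
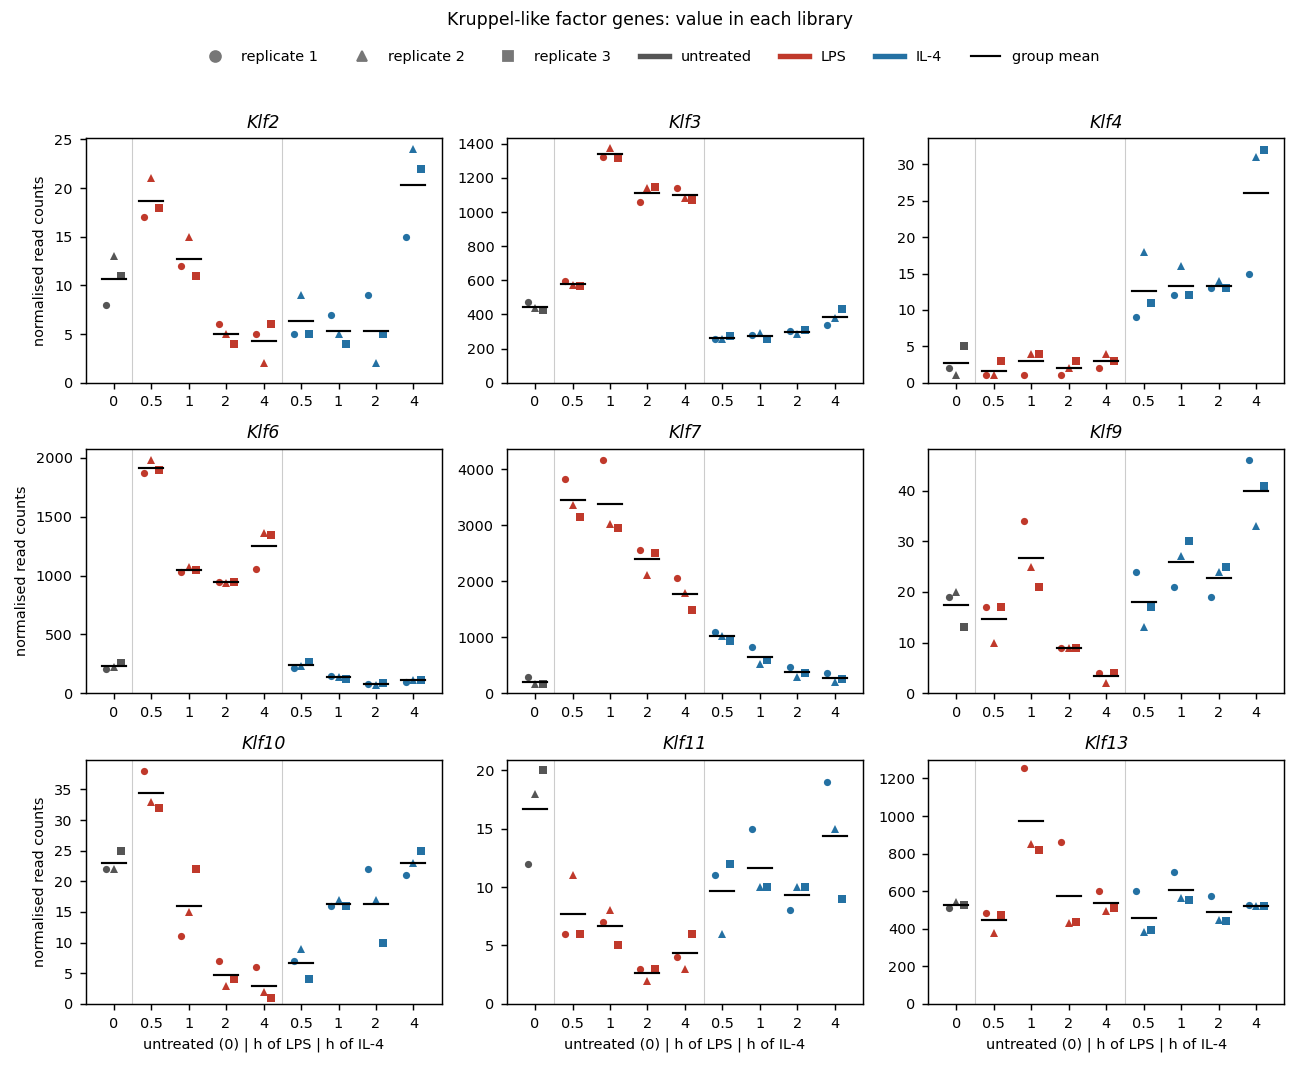
Normalised read counts of each gene in all 27 samples (y axis from 0, separate scale per gene), by group on the x axis. Symbols are replicates and lines group means. The LPS samples of Klf6 (940 to 1978) and Klf7 (1483 to 4162) all lie above the untreated samples, and Klf4 stays at 5 or lower outside the IL-4 groups.

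The LPS course asked which members respond to a bacterial signal. Klf6 and Klf7 were higher than untreated at all 4 times, and so was Klf3, except that its 0.5 h change turned to -0.13 at equal totals. Klf11 was lower at all 4 times, and Klf2, Klf9 and Klf10 were lower from 2 h on. Klf13 was higher at 1 h, and no change of Klf4 was detected. In limma's moderated test on log2(value + 1), adjusted over all 13901 genes tested, 3 members were higher and 1 lower at 0.5 h, where 19.6% of all genes were called higher and 34.4% lower. Without replicate 3 the 0.5 h count was 2 in place of 4. At 1 h 4 were higher (24.8% of all genes) and 1 lower (39%), at 2 h 3 higher (26.9%) and 4 lower (39%), and at 4 h 3 higher (25.9%) and 4 lower (37.6%). Over the whole course 8 of the 9 passed the F test, against 87.6% of all genes, 4 with a rise as the largest change (32.9% of all genes) and 4 with a fall (54.7%). The course count is near its background, and nothing about the family is read from it. The median change of the 9 members was 0.38, 0.59, -0.19 and 0.02 at the 4 times. The median change of all tested genes was itself -0.24 to -0.30 in the deposited scaling. It was -0.03 to 0.00 with median-of-ratios rescaling and -0.75 to -0.95 at equal totals (each sample scaled to the same sum). The split of members called moved with the scaling. At 0.5 h it was 4 higher and 0 lower with median-of-ratios and 2 and 2 at equal totals, at 1 h 3 and 2 at equal totals, and at 2 h 3 and 2 with median-of-ratios. Over the course it was 5 rising and 3 falling with median-of-ratios and 3 and 5 at equal totals. With median-of-ratios the falls of Klf11 at 0.5 h and of Klf2 and Klf9 at 2 h did not pass. The rises of Klf2 at 0.5 h and of Klf9 at 1 h passed with it. At equal totals Klf13 passed as lower at 0.5, 2 and 4 h and did not pass as higher at 1 h.

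Klf6, an early-response factor and tumour suppressor, was highest at the first time after LPS. The untreated samples, in the order of their replicate numbers as throughout, had values of 208, 224 and 253 normalised read counts, and those at LPS 0.5 h had 1872, 1978 and 1894. The values were 1027, 1072 and 1045 after 1 h, 942, 940 and 946 after 2 h, and 1054, 1362 and 1340 after 4 h. Every LPS sample was at least several times above every untreated one. The mean was 8.39-fold, 4.59-fold, 4.13-fold and 5.48-fold the untreated mean at the 4 times. The log2 fold changes were 3.07 (SE 0.11, adjusted p 5.1e-12), 2.20, 2.05 and 2.44, and all 4 passed under each of the 11 alternatives. From 0.5 to 1 h the transcript fell by 0.87 (adjusted p 1.0e-05). From 2 to 4 h it rose by 0.40 (adjusted p 0.0152), a step that did not pass without replicate 2 (0.33, adjusted p 0.289) or replicate 3 (0.35, 0.233).

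Klf7, known for its part in the growth of neurons, had the largest log2 fold changes of the members after LPS. It held 288, 165 and 172 in the untreated samples, 3836, 3364 and 3156 after 0.5 h of LPS and 4162, 3022 and 2959 after 1 h. It then held 2566, 2108 and 2504 after 2 h and 2055, 1795 and 1483 after 4 h. The lowest LPS value, 1483, was over 5 times the highest untreated one, and replicate 1 was the highest of its group throughout. The mean was 16.6-fold, 16.2-fold, 11.5-fold and 8.53-fold the untreated mean at the 4 times. On the log2 scale the changes were 4.09 (SE 0.20, adjusted p 2.2e-10), 4.04, 3.56 and 3.12, and all passed under the 11 alternatives. From 0.5 to 4 h the change shrank, with a difference of -0.97 (SE 0.20, adjusted p 5.5e-04).

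Klf3, a repressor that acts with CtBP proteins, rose later. The untreated values were 473, 440 and 424, against 598, 572 and 567 after 0.5 h of LPS, 1322, 1375 and 1318 after 1 h, 1056, 1138 and 1148 after 2 h and 1142, 1085 and 1070 after 4 h. The groups did not overlap at any time, with a large rise between 0.5 and 1 h. The 4 h mean was 2.47-fold the untreated mean. The log2 fold changes at 1, 2 and 4 h were 1.59 (SE 0.09, adjusted p 5.7e-10), 1.32 and 1.30 and passed under all 11 alternatives. At 0.5 h the change was 0.38 (adjusted p 0.0019). It was -0.13 at equal totals (adjusted p 0.215) and did not pass without replicate 2 (adjusted p 0.0692) or without replicate 3 (adjusted p 0.0657). The step from 0.5 to 1 h was 1.21 (SE 0.09, adjusted p 4.5e-08). That from 1 to 2 h was -0.27 (adjusted p 0.0220) and did not pass without replicate 2 (adjusted p 0.227) or replicate 3 (0.142).

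The values of Klf3, Klf7, Klf10 and Klf13 may include reads of overlapping genes, since the Smart-seq2 and Tn5 library type does not mark strand. Gm38457 lies on the opposite strand over 19.3% of the span of Klf3, and its mean went from 141 in untreated samples to 404 at LPS 1 h and 75.0 at IL-4 0.5 h. Gm31684 lies on the same strand as Klf3 over 9.91% of its span, where marking the strand would not separate the reads, and its mean went from 30.3 in untreated samples to 120 at LPS 1 h and 18.7 at IL-4 1 h. Gm13748 lies opposite 25.5% of the span of Klf7, and its mean went from 41.7 to 935 at LPS 0.5 h and 256 at IL-4 0.5 h. On the opposite strand of Klf10, Gm35248 covers 21.2% and held a mean of 7 untreated and 26 at LPS 0.5 h. After IL-4 it held 9.67 at 0.5 h and 24.3 at 1 h, when the mean of Klf10 itself was 16.3. E030018B13Rik and Gm27252 cover 7.01% and 7.90% of Klf13, and no annotated gene of the table overlaps Klf2, Klf4, Klf6 or Klf11. In all 3 pairs plotted the overlapping gene had its highest mean in the same group as the Klf gene, and reads from either gene cannot be told apart where they overlap.

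**Figure D3:**
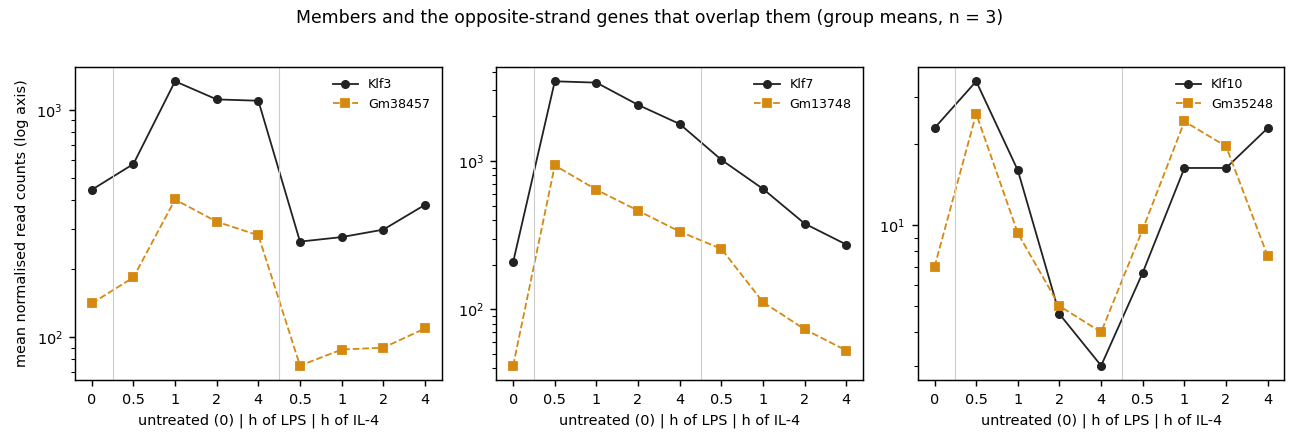
Group means (n = 3, log axis) of Klf3, Klf7 and Klf10 (circles) and of the opposite-strand genes that overlap them (squares), by group. Gm13748 goes from 41.7 to 935 at LPS 0.5 h, when Klf7 goes from 208 to 3452.

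Of the members that fell after LPS, Klf11 did so from the start. Klf11 and Klf10 are the TGF-beta-inducible early genes of the family. Klf11 held 12, 18 and 20 in untreated samples, and 6, 11 and 6 after 0.5 h of LPS, 7, 8 and 5 after 1 h, 3, 2 and 3 after 2 h, and 4, 3 and 6 after 4 h. No LPS sample reached the lowest untreated one. At 2 h all 3 samples were at or under a floor of 3 normalised read counts, so the mean was at least 5.56-fold lower than untreated. The log2 fold changes were -1.05 at 0.5 h (SE 0.34, adjusted p 0.0177), -1.20 at 1 h (adjusted p 0.0067), -2.25 at 2 h (adjusted p 3.3e-05) and -1.74 at 4 h (adjusted p 3.9e-04). Those at 2 and 4 h passed under all 10 alternatives that tested the gene. Without replicate 3 those at 0.5 h (adjusted p 0.220) and 1 h (0.142) did not pass. With median-of-ratios rescaling the 0.5 h change was -0.83 and did not pass (adjusted p 0.0552).

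Klf10 started with 22, 22 and 25 and stood at 38, 33 and 32 after 0.5 h of LPS, above every untreated sample, but the difference of 0.56 did not pass (95% interval -0.32 to 1.43, adjusted p 0.271). It then held 11, 15 and 22 after 1 h, a change that passed at equal totals alone (-1.10, adjusted p 0.0208), 7, 3 and 4 after 2 h, and 6, 2 and 1 after 4 h. At 2 and 4 h all samples were below the untreated range, 4.93-fold and 7.67-fold lower by the ratio of means. The 4 h mean was itself 3, the floor, so that ratio is uncertain. Log2 fold changes were -2.14 (SE 0.41, adjusted p 2.9e-04) and -2.79 (adjusted p 2.4e-05) and passed under all 10 alternatives.

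Klf9, a factor induced by glucocorticoid and thyroid hormone, was lowest at 4 h of LPS. Untreated samples held 19, 20 and 13, and the LPS samples 17, 10 and 17 after 0.5 h, 34, 25 and 21 after 1 h, 9, 9 and 9 after 2 h and 4, 2 and 4 after 4 h. The 1 h samples were all above the untreated ones, with a difference of 0.59 that did not pass (95% interval -0.08 to 1.25, adjusted p 0.111). It passed with median-of-ratios rescaling (0.84, adjusted p 0.0348) and with a pseudocount of 8 (0.45, adjusted p 0.0483). The 4 h mean was 5.20-fold lower than untreated. Its change of -2.10 (SE 0.31, adjusted p 2.6e-05) passed under all 10 alternatives. That at 2 h was -0.85 (adjusted p 0.0255) and did not pass without replicate 1 (adjusted p 0.0906), 2 (0.122) or 3 (0.0671). With median-of-ratios rescaling the 2 h change was -0.63 and did not pass either (adjusted p 0.101).

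Klf2 held 8, 13 and 11 in untreated samples and 17, 21 and 18 after 0.5 h of LPS, again above the untreated range without passing the test (0.77, 95% interval 0.06 to 1.48, adjusted p 0.0635). It passed with median-of-ratios rescaling (1.00, adjusted p 0.0223) and with a pseudocount of 8 (0.52, adjusted p 0.0143). It held 12, 15 and 11 after 1 h, 6, 5 and 4 after 2 h, and 5, 2 and 6 after 4 h. The samples at 2 and 4 h were all below the untreated ones. The log2 fold changes were -0.95 at 2 h (SE 0.33, adjusted p 0.0207) and -1.19 at 4 h (adjusted p 0.0056). That at 2 h did not pass without replicate 2 (adjusted p 0.0981) or 3 (0.183), and that at 4 h did not pass without replicate 2 (-0.68, adjusted p 0.164). With median-of-ratios rescaling the 2 h change was -0.74 and did not pass (adjusted p 0.0692).

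Klf13, an activator of chemokine genes in T cells, was higher at 1 h alone in the deposited scaling. The untreated values were 510, 542 and 526, and those after LPS were 485, 379 and 473 after 0.5 h, 1256, 852 and 820 after 1 h, 864, 430 and 436 after 2 h and 601, 494 and 512 after 4 h. Replicate 1 was the highest of each LPS group. The 1 h samples were 1.86-fold the untreated mean and did not overlap with it. The log2 fold change at 1 h was 0.86 (SE 0.23, adjusted p 0.0038), and at equal totals it was 0.28 and did not pass (adjusted p 0.265). At 2 and 4 h the differences were 0.05 (95% interval -0.43 to 0.54) and 0.02 (-0.46 to 0.51) in the deposited scaling and -0.61 and -0.59 at equal totals. The 2 h one was -0.30 (adjusted p 0.0189) without replicate 1, and the 0.5 h change, -0.25 with all replicates (adjusted p 0.381), was then -0.33 (adjusted p 0.0133). Klf4, a factor known from pluripotent cells, held 1 to 4 normalised read counts in all 12 LPS samples and 2, 1 and 5 in the untreated ones, levels at which no fold change is given.

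**Figure D4:**
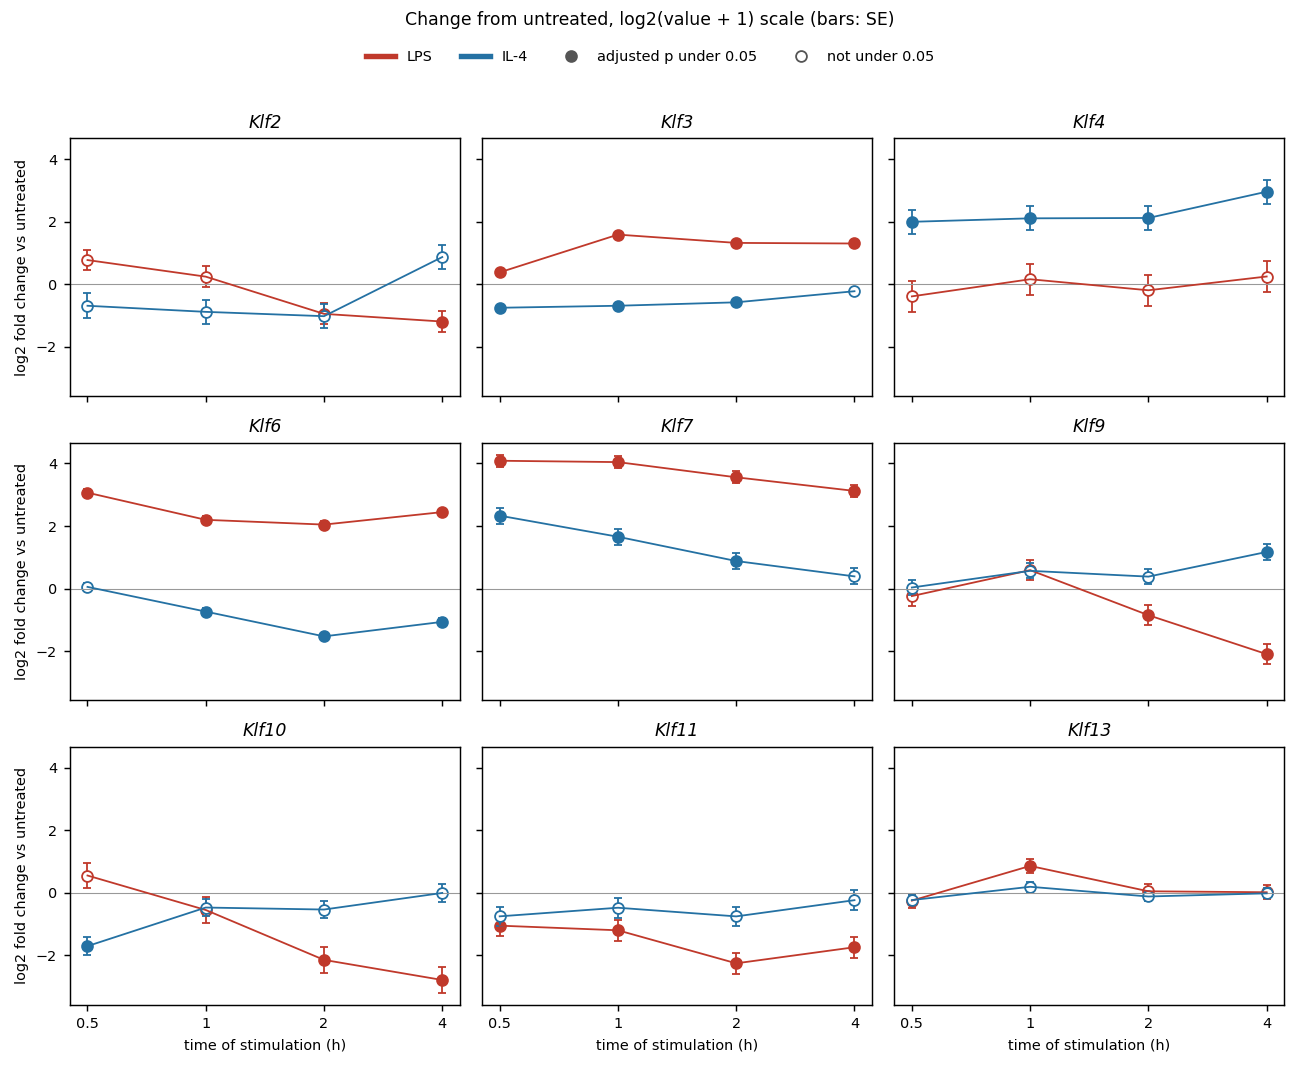
Log2 fold change from untreated (y axis, log2(value + 1) scale, bars SE) of the 9 genes over 0.5 to 4 h of LPS (red) or IL-4 (blue), filled where the adjusted p is under 0.05. Klf6 and Klf3 are above 0 after LPS and at or below 0 after IL-4, except that the 0.5 h LPS point of Klf3 falls to -0.13 at equal totals and the 0.5 h IL-4 point of Klf6 is 0.05. Klf7 is above 0 under both.

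Between neighbouring times of the LPS course 5 members changed from 0.5 to 1 h (49.7% of all genes), 6 from 1 to 2 h (43.3%) and 2 from 2 to 4 h (22.9%). From 0.5 to 1 h Klf3, Klf13 (1.11) and Klf9 (0.83) rose while Klf6 and Klf10 (-1.10) fell, and from 1 to 2 h all 6 that passed fell. The latter were Klf10 (-1.60), Klf9 (-1.44), Klf2 (-1.19), Klf11 (-1.06), Klf13 (-0.81) and Klf3 (-0.27). The counts were 3 from 0.5 to 1 h without any 1 of the replicates, 1 from 1 to 2 h without replicate 2 or 3, and by limma 0 from 2 to 4 h without replicate 2 or 3 (1 each at an unadjusted p under 0.05). From 0.5 to 1 h the calls of Klf9 (adjusted p 0.0746 to 0.231) and Klf10 (0.0597 to 0.178) were lost in each case. From 1 to 2 h the fall of Klf9 was the one that passed under every alternative.

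The IL-4 course asked the same of a signal of alternative activation. Klf7 was higher and Klf3 and Klf6 lower for much of the course, Klf10 was lower at 0.5 h and Klf9 higher at 4 h, and Klf4 held more than in any untreated sample throughout. At 0.5 h 2 members were higher (8.15% of all genes) and 2 lower (8.14%), at 1 h 2 higher (11.1%) and 2 lower (9.83%), at 2 h 2 higher (14.3%) and 2 lower (13.2%), and at 4 h 2 higher (13.4%) and 1 lower (12.5%). Over the course 7 of the 9 passed the F test, against 40.3% of all genes, 3 with a rise as the largest change (19.4%) and 4 with a fall (20.9%). Klf4 passed the filter on low values through 11 IL-4 samples alone and so had to differ. It is 1 of the 2 higher members at each time and 1 of the 3 with a rise, and nothing is read from its share of these counts. At 4 h the split was 2 and 2 with median-of-ratios rescaling. Klf2 passed the F test (adjusted p 0.0070) with no single time against untreated passing. For Klf11 (adjusted p 0.214) and Klf13 (0.243) no change was detected. The IL-4 and LPS courses were compared with the same 3 untreated samples.

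Klf4 held 2, 1 and 5 in the untreated samples and 9, 18 and 11 after 0.5 h of IL-4, 12, 16 and 12 after 1 h, 13, 14 and 13 after 2 h and 15, 31 and 32 after 4 h. All 12 IL-4 samples were above the highest untreated one. As a description, since the filter fixed that the gene differs, the differences on the log2(value + 1) scale were 1.99, 2.11, 2.12 and 2.96. Their size depends on the pseudocount at such levels, and the alternatives gave 0.95 to 2.49 at 0.5 h and 1.65 to 3.23 at 4 h.

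Klf7 rose at once and then declined. After the untreated 288, 165 and 172 it held 1094, 1023 and 942 after 0.5 h of IL-4, 820, 526 and 600 after 1 h, 471, 296 and 368 after 2 h, and 371, 197 and 252 after 4 h. The samples lay above the untreated range up to 2 h and within it in part at 4 h. The means were 4.89-fold, 3.11-fold, 1.82-fold and 1.31-fold the untreated mean. The log2 fold changes at 0.5 h (2.33, SE 0.26, adjusted p 2.5e-05) and 1 h (1.66, adjusted p 3.5e-04) passed under all 11 alternatives. The 2 h one (0.88, adjusted p 0.0213) did not pass without replicate 2 (0.90, adjusted p 0.0824) or 3 (0.77, 0.256), and at 4 h none was detected (0.39, 95% interval -0.17 to 0.95, adjusted p 0.318). When the fit took the replicate number as a block, the 4 h change of 0.39 passed (adjusted p 0.0198). Without replicate 1, the highest of its group, it was 0.40 and passed as well (adjusted p 0.0368). The declines from 0.5 to 1 h (-0.67, adjusted p 0.0017), from 1 to 2 h (-0.78, adjusted p 3.9e-04) and from 2 to 4 h (-0.49, adjusted p 0.0148) also passed with the block and not in the reported fit.

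Klf3 fell at the earliest time and returned towards the untreated level. It held 259, 258 and 274 after 0.5 h of IL-4, 281, 291 and 256 after 1 h, 301, 285 and 307 after 2 h, and 336, 381 and 431 after 4 h. The samples up to 2 h were all below the untreated ones (424 to 473) and those at 4 h overlapped them. limma gave log2 fold changes of -0.75 (SE 0.09, adjusted p 4.6e-05), -0.69 and -0.58 up to 2 h, each passing under all 11 alternatives, and -0.23 at 4 h (adjusted p 0.0838), which passed with median-of-ratios rescaling alone (-0.28, adjusted p 0.0328). The untreated mean was 1.69-fold the 0.5 h mean.

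Klf6 fell later. It held 215, 233 and 263 after 0.5 h of IL-4, 150, 139 and 121 after 1 h, 79, 72 and 84 after 2 h, and 95, 114 and 117 after 4 h, against 208, 224 and 253 untreated. The 0.5 h samples overlapped the untreated range (0.05, 95% interval -0.20 to 0.31) and all later ones were below it. The 2 h mean was 2.91-fold lower than the untreated mean. The log2 fold changes were -0.74 at 1 h (SE 0.12, adjusted p 4.7e-04), -1.53 at 2 h (adjusted p 5.0e-07) and -1.07 at 4 h (adjusted p 1.8e-05), and passed under all 11 alternatives.

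Klf10 and Klf9 each passed at 1 time after IL-4. Klf10 held 7, 9 and 4 after 0.5 h of IL-4, below the untreated 22, 22 and 25, then 16, 17 and 16 after 1 h, 22, 17 and 10 after 2 h and 21, 23 and 25 after 4 h. Its 0.5 h change was -1.70 (SE 0.28, adjusted p 7.4e-04), 3.45-fold lower by the ratio of means, and passed under all 10 alternatives. Klf9 held 24, 13 and 17 after 0.5 h, 21, 27 and 30 after 1 h, 19, 24 and 25 after 2 h, and 46, 33 and 41 after 4 h, where all were above the untreated 13 to 20. Its 4 h change was 1.17 (SE 0.24, adjusted p 0.0029), which did not pass without replicate 3 (0.96, adjusted p 0.114).

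Klf2 held 5, 9 and 5 after 0.5 h of IL-4, 7, 5 and 4 after 1 h, 9, 2 and 5 after 2 h, and 15, 24 and 22 after 4 h. The 4 h samples were above the untreated 8 to 13, with a difference of 0.87 that did not pass (adjusted p 0.130) except with a pseudocount of 8 (0.60, adjusted p 0.0402). The rise from 2 to 4 h was 1.89 (SE 0.39, adjusted p 0.0135) and did not pass without replicate 2 (1.31, adjusted p 0.249) or 3 (1.87, 0.308). Klf11 held 6 to 19 and Klf13 383 to 701 in the IL-4 samples. The 4 intervals of the change from untreated reached from -1.43 to 0.45 for Klf11 and from -0.57 to 0.53 for Klf13. Without replicate 1 Klf13 passed at 0.5 h (-0.46, adjusted p 2.4e-04) and 2 h (-0.26, adjusted p 0.0066), Klf2 at 1 h (-1.24, adjusted p 0.0312) and 2 h (-1.61, adjusted p 0.0071), Klf11 at 0.5 h (-1.07, adjusted p 0.0469) and Klf9 at 1 h (0.78, adjusted p 0.0423). Between neighbouring IL-4 times 2 members changed from 0.5 to 1 h (7.82% of all genes), Klf6 (-0.79) and Klf10 (1.23). From 1 to 2 h 1 changed (9.4%), Klf6 (-0.79), and from 2 to 4 h 3 changed (5.48%), Klf2, Klf6 (0.46) and Klf3 (0.35). Without replicate 2 none of these steps passed (2, 2 and 3 members at an unadjusted p under 0.05 by limma), and without replicate 3 the step of Klf6 from 1 to 2 h alone did. In the blocked fit the counts were 4, 2 and 4, with Klf7 added at each step and Klf13 at the first (0.42, adjusted p 0.0235).

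The direct comparison of the stimuli at equal times gave the size of the divergence. Klf6 and Klf3 moved in opposite directions at 1 and 2 h, and Klf7 rose under both but more under LPS. At 0.5 h 5 members were higher with LPS than with IL-4 (18% of all genes) and 1 lower (35.8%), and at 1 h 5 were higher (24%) and 1 lower (40.5%). At 2 h 3 were higher (26.4%) and 4 lower (42.3%), and at 4 h 3 were higher (26.1%) and 5 lower (41.9%). Klf4 is 1 of the lower members at each time. At equal totals the splits were 5 and 2 at 0.5 h and 3 and 2 at 1 h. At that scaling Klf9 at 0.5 h (-0.63, adjusted p 0.0474) and Klf11 at 1 h (-1.15, 0.0031) were added as lower. Klf13 was added as lower at 2 and 4 h. The Klf11 difference at 1 h also passed with a pseudocount of 8 (-0.42, adjusted p 0.0486). The median difference of all genes lay between -0.23 and -0.36, and that of the 9 members was 1.13, 0.67, 0.07 and -1.50.

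In the order of the 4 times, the difference for Klf6 was 3.01, 2.94, 3.58 and 3.51 (SE 0.11, adjusted p 4.8e-18 at 4 h). For Klf7 it was 1.76, 2.39, 2.68 and 2.73 (SE 0.23, adjusted p 1.5e-10 at 4 h), and for Klf3 1.13, 2.28, 1.90 and 1.53 (SE 0.09, adjusted p 1.3e-13 at 4 h). All 12 passed under each of the 10 alternatives. In the other direction, the difference for Klf4 was -2.38, -1.95, -2.31 and -2.71, but a gene that passed the filter only through IL-4 samples had to differ here.

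Klf9, Klf10 and Klf11 were lower with LPS than with IL-4 at 2 and 4 h, and Klf2 at 4 h alone (0.07 at 2 h, adjusted p 0.869). The 2 h difference of Klf10 was -1.61 and did not pass without replicate 2 (-1.33, adjusted p 0.0505). At 4 h Klf9 held 4, 2 and 4 with LPS and 46, 33 and 41 with IL-4, a difference of -3.27 (SE 0.28, adjusted p 2.2e-10). At the same time Klf10 held 6, 2 and 1 against 21, 23 and 25 (-2.78, adjusted p 5.3e-07). Klf11 held 4, 3 and 6 against 19, 15 and 9 (-1.50, adjusted p 2.8e-04), and Klf2 held 5, 2 and 6 against 15, 24 and 22 (-2.06, adjusted p 3.4e-05). None of these pairs of groups overlapped, and all 4 differences passed under each of the 9 alternatives that tested them. Klf2 and Klf10 stood the other way round at 0.5 h, with differences of 1.46 (adjusted p 0.0019) and 2.26 (adjusted p 1.8e-05). The Klf2 difference at 0.5 h did not pass without replicate 3 (adjusted p 0.0614). At 1 h it was 1.13 (adjusted p 0.0109) and did not pass without replicate 3 (adjusted p 0.120) or at equal totals (0.0953). For Klf13 the difference was 0.67 at 1 h (adjusted p 0.0088), was 0.19 at equal totals (adjusted p 0.430), and did not pass without replicate 2 (0.0597) or 3 (0.0593). At 4 h it was 0.03 (95% interval -0.41 to 0.48), and -0.59 at equal totals, where it passed (adjusted p 0.0144). The 2 h difference of Klf13 was -0.46 at equal totals and passed there too (adjusted p 0.0489).

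**Figure D5:**
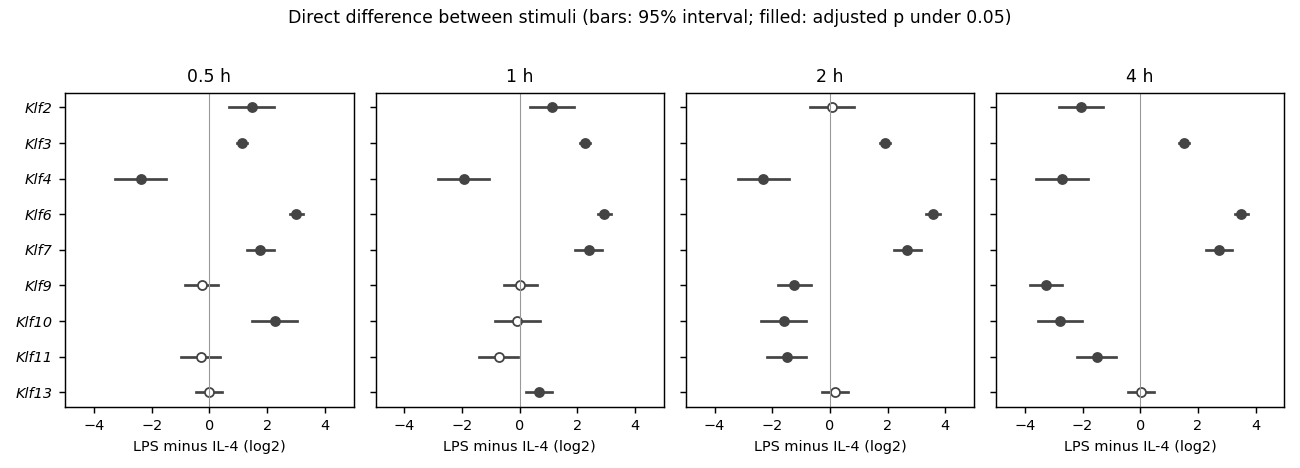
LPS minus IL-4 (x axis, log2 of value + 1) for the 9 genes at each time, bars 95% intervals, filled where the adjusted p is under 0.05. Klf3, Klf6 and Klf7 lie to the right at all 4 times, and Klf2 and Klf10 cross from right to left between 0.5 and 4 h. The near-0 points of Klf13 at 2 and 4 h become -0.46 and -0.59 at equal totals, both with an adjusted p under 0.05.

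Of the 8 other Klf and 9 Sp genes in the table, 6 were tested, Klf8, Klf16 and Sp1 to Sp4, and none of the other 11 exceeded 9 normalised read counts. Of the 6, 5 passed over the LPS course (87.6% of all genes did; 3 rising and 2 falling by their largest change, median 0.11 over the 6 against -1.002 over all genes). It was 1 rising and 5 falling at equal totals, and 3 genes passed without replicate 2. Klf8, which also acts with CtBP, held a mean of 87.3 ± 29.3 untreated (SD, n = 3), 38.7 ± 10.1 at LPS 1 h and 635 ± 69.8 at 2 h. It had a log2 fold change of -1.13 at 1 h and 2.90 at 2 h (SE 0.33, adjusted p 1.6e-06). Klf16 fell, with -1.63 at 4 h, and so did Sp3, with -1.59 at 2 h. Over the IL-4 course Sp3 alone passed (40.3% of all genes did; -0.44 at 2 h, median -0.32 against -0.16 over all genes). By limma none did without replicate 2 (0 at an unadjusted p under 0.05) or 3 (2 at an unadjusted p under 0.05), and 4 did at equal totals or with the replicate number as a block.

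Genes that act with or on the family were taken from 5 further lists. Rising and falling refer to the largest change of a gene over the 4 times. Over all genes 32.9% rose and 54.7% fell in this sense over the LPS course (median -1.002), and 19.4% rose and 20.9% fell over the IL-4 course (median -0.16). In the ERK5-MEF2 pathway, upstream of Klf2 and Klf4, 7 of 7 tested genes passed over the LPS course, against 87.6% of all genes, all with a fall as the largest change, and their median largest change was -1.73. The largest were Mef2c (-2.84), Mef2d (-2.60) and Map3k3 (-2.17), all at 4 h. Over the IL-4 course 4 of the 7 passed (40.3% of all genes), 1 rising and 3 falling (median -0.50), with Mef2c -1.87 at 1 h, and 2 passed without replicate 3. Mef2c, a macrophage-expressed MEF2 gene, went from a mean of 1928 untreated to 273 at LPS 4 h and 526 at IL-4 1 h.

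Of 14 co-repressors, co-activators and ubiquitin ligases that bind family members, 11 passed over the LPS course (87.6% of all genes), 1 rising and 10 falling (median -1.24), and with median-of-ratios rescaling 5 rose and 7 fell. Wwp1, a ubiquitin ligase of Klf2 and Klf5, fell by 4.91 on the log2 scale at 4 h, from a mean of 5032 to 166. Hdac1, the one whose largest change was a rise, gained 1.97 at 2 h. At that time 3 of the 14 were higher, Hdac1, Kat2b (0.81) and Hdac2 (0.49), and 6 lower. Kat2b fell at 1 h (-1.77) before it rose, and the co-activator Ep300 changed by -1.82 at 1 h. Over the IL-4 course 6 passed (40.3% of all genes), all falling (median -0.29), with Wwp1 at -1.45, but 2 passed without replicate 2 and 1 without replicate 3.

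Of 10 TGF-beta and SMAD genes, of the pathway that induces Klf10 and Klf11, all 10 passed over the LPS course (87.6% of all genes), 3 rising and 7 falling (median -1.55). The direction changed with time, since 8 of the 10 were higher and 1 lower at 1 h, and 2 were higher and 6 lower at 4 h. The SMAD co-repressor gene Skil rose by 4.17 at 0.5 h, from a mean of 228 to 4101, while the receptor gene Tgfbr1 and the mediator gene Smad3 fell, with -4.04 and -3.88 at 4 h. Over the IL-4 course 8 passed (40.3% of all genes), 4 rising and 4 falling (median 0.11), with Smad3 at -1.76, Tgif1 at -1.70 and Ski at 1.48, and 5 passed without replicate 2 or without replicate 3. Smad3 was higher after LPS before it fell, with a mean of 441 untreated and 1004 at 1 h.

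Of 7 genes of the glucocorticoid receptor and its targets, the pathway that induces Klf9, all 7 passed over the LPS course (87.6% of all genes), 4 rising and 3 falling (median 1.28), and at equal totals 2 rose and 5 fell. Dusp1 and Zfp36, which dampen inflammatory signalling, rose by 6.25 and 3.73 at 0.5 h. Tsc22d3, the glucocorticoid-induced leucine zipper gene, was at least 21.6-fold lower at 4 h, where all samples were at or under the floor. Over the IL-4 course 5 passed (40.3% of all genes), 1 rising and 4 falling (median -0.89), with Dusp1 at -2.42 and Sgk1 at -2.05, and 3 passed without replicate 2 and 2 without replicate 3.

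Of 12 genes reported elsewhere as targets of the family, 9 were tested and 7 passed over the LPS course (87.6% of all genes), 2 rising and 5 falling (median -1.82). S1pr1, a known target of Klf2 in T cells, and Mrc1 fell, with -4.59 and -4.16 at 4 h. Over the IL-4 course 6 passed (40.3% of all genes), 4 rising and 2 falling (median 1.64). The alternative activation genes Mrc1 (3.08 at 1 h) and Retnla (at least 38.1-fold higher at 4 h, from 0 in untreated) rose, and Thbd was at least 7.44-fold lower at 2 h. The lists were put together with earlier results of these data known, and nothing particular to them is read from these counts.

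The genes whose 9 group means (log2 scale) followed a member most closely were taken from 7568 protein-coding genes. For Klf6 they were Gm6377 (Pearson's r 0.99), Clec4e (0.99) and Dscam (0.99), for Klf7 Lcp1 (0.99), Ptger4 (0.99) and Lcp2 (0.98), and for Klf3 Gm38457 (0.99, which overlaps it), Trim36 (0.98) and Rilpl2 (0.98). For Klf4 they were Mgl2 (0.98), Gps2 (0.97) and Batf3 (0.96), for Klf11 Tfeb, Rbm15 and Adipor2 (all 0.97), and for Klf10 Atxn3 (0.97), Plpbp (0.93) and Sfpq (0.93). For Klf9 they were Hvcn1 (0.96), Tial1 (0.96) and Colgalt1 (0.95), and for Klf13 Kcmf1 (0.95), Celf1 (0.95) and Capn2 (0.95). Klf2 had no closer gene than Eif2s3y (0.86), Ctsh (0.85) and Ythdc1 (0.84). Among the members themselves the closest pair was Klf6 and Klf7 (0.88), and the most opposed Klf4 and Klf6 (-0.85). Klf4 passed the filter through IL-4 samples alone and was near the floor elsewhere, so nothing is read from its correlations. All these values share the same 27 libraries and 9 group means and describe them, without a test.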

How the data were processed

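Chromatin-associated RNA of 27 BMDM samples was sequenced. Per the labels and the methods, the authors made libraries with random primers, aligned single-end reads to mm10 with TopHat2 2.1.1 against RefSeq transcripts, removed reads with several hits or in blacklisted regions, counted reads per gene and scaled libraries on invariant genes. What the authors deposited is a score per gene and sample, the normalised read count, given in whole numbers, and it was not treated as a raw count. The library type (Smart-seq2 with Tn5) does not mark strand, whether introns were counted is not given in the sources used here, and depth is unknown. The submitters' processing notes also name bedtools 2.29.2 and R 3.6.2. Coordinates are on GRCm38, counted from 1.

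Columns were assigned through their names, which match the sample titles. The test took in 13901 of 45070 genes, all 9 members among them, that reached a value of 10 in 3 or more of the 27 samples. limma 3.58.1 in R 4.3.3 was fitted with a mean-variance trend on log2(value + 1), on the 15 samples of each course (F test of 4 times against untreated, each time against untreated, and neighbouring times), and on all 27 for LPS against IL-4. Tests were two-sided, with Benjamini-Hochberg adjustment over all genes tested and a threshold of 0.05. Fold changes on this scale understate those of low genes. Ratios are of group means, and a ratio to a group whose samples were all at or under 3 normalised read counts is given as a bound. The procedure was tested on simulated data, in which low untreated means were raised and no replicate effect was set. The simulation therefore does not cover the low members or the differences between replicates seen here. Whether replicate numbers pair samples was checked by correlating deviations from the group means with those of the same-numbered untreated sample. All 12 correlations of the IL-4 samples were over 0.1 (0.207 to 0.680), and 11 of 12 of the LPS samples (0.0897 to 0.596). Replicate 1 stood apart from the others in every group, so these values cannot tell a pairing of each number from that difference. No source gives a basis for pairing, the reported fit has no block, and blocked values are given where they change a call after IL-4.

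Alternatives were a pseudocount of 8, no filter, a mean of at least 50, 2 rescalings, the replicate number as a block, leaving out each replicate, averaging replicates 2 and 3, and 1 fit of all samples. The members and gene lists were chosen with earlier results of these data known. All 9 members are named, and up to 3 genes per list by the size of the change among those that passed, except 1 gene that is not reported here. Promoter sequences are from RefSeq (GRCm38.p6).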

Additional observations from a re-analysis of the deposited data

Results flagged for a closer look

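For 6 members the effect of a stimulus at 4 h differed from its effect at 0.5 h under both stimuli, by the test of that difference in the same limma fit. After LPS the 4 h effect minus the 0.5 h effect was -1.97 for Klf2, -1.86 for Klf9 and -3.34 for Klf10, the members that ended below untreated. It was 0.92 for Klf3, the late riser, and -0.62 for Klf6 and -0.97 for Klf7, which peaked early and stayed up. After IL-4 it was 1.56 for Klf2, 1.14 for Klf9 and 1.70 for Klf10, 0.53 for Klf3, -1.12 for Klf6 and -1.94 for Klf7. Klf2, Klf9 and Klf10 were thus lower at 4 h than at 0.5 h after LPS and higher at 4 h than at 0.5 h after IL-4. The times between did not all follow, since the mean of Klf9 went from 14.7 at LPS 0.5 h to 26.7 at LPS 1 h before it fell. The IL-4 difference of Klf2 did not pass without replicate 3 (1.37, adjusted p 0.188), and that of Klf9 did not pass without replicate 2 (1.07, adjusted p 0.0630) or 3 (1.10, 0.0776). The other 10 passed without each of the replicates. In every case both effects share the 3 untreated samples, which cancel in the difference.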

How the results depend on the processing

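Of 216 counts of members under the alternatives, 176 stayed within 1.5 times the reported count, 34 were lower and 6 higher. With a mean of at least 50, which left Klf3, Klf6, Klf7 and Klf13 to test, the counts were 3 at LPS 2 h and at 4 h, 3, 3 and 1 for the successive LPS steps, 4 over the LPS course, 2 at IL-4 0.5 h, 1 at IL-4 4 h, 1 for the first IL-4 step, 3 over the IL-4 course and 3 between the stimuli at 0.5, 2 and 4 h. With replicates 2 and 3 averaged they were 2 at LPS 0.5 h, 3, 2 and 0 for the LPS steps, and 0 for the first and last IL-4 steps. At an unadjusted p under 0.05 limma then gave 1, 2 and 4 for the 3 counts of 0. With 1 fit of all 27 samples the first and second IL-4 steps had 1 and 2, and with no filter the last had 1.

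Leaving out 1 replicate number gave 2 to 5 at LPS 0.5 h, 3 in each case for the LPS step to 1 h, 1 to 6 for that to 2 h and 0 to 3 for that to 4 h. It gave 0 to 5, 0 to 3 and 0 to 5 for the IL-4 steps. The zeros arose without replicate 2 or 3, and with 2 samples a group the test has less to work with. With the replicate number as a block (replicate block) the first and second IL-4 steps had 4 and 2. Of 24 correlations of same-numbered deviations with the untreated ones 23 were over 0.1, the exception being LPS 4 h replicate 2 (0.0897), and 19 of 27 samples correlated best with their own number. The block lost no call of a single member and added 8. Of these, 4 changes of Klf7 and 1 of Klf13 after IL-4 are given with the results. The others were the LPS steps of Klf7 from 1 to 2 h (-0.49, adjusted p 0.0027) and 2 to 4 h (-0.44, adjusted p 0.0101), and the Klf4 difference between 4 and 0.5 h of IL-4 (0.96, adjusted p 0.0494). The counts were then 7 for the LPS step to 2 h and 3 for that to 4 h.

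At equal totals the sign turned for Klf3 at LPS 0.5 h (-0.13), for Klf13 at LPS 2 h (-0.61) and 4 h (-0.59), and for Klf13 between the stimuli at 2 h (-0.46) and 4 h (-0.59). All these Klf13 values passed at equal totals with an adjusted p under 0.05, and that of Klf3 did not. Without each replicate number in turn the 2 h LPS change of Klf13 ran from -0.30 to 0.24. The cause was not tested. The changes of Klf6 and Klf7 at all LPS times, of Klf3 from LPS 1 h on and of Klf6 from IL-4 1 h on passed under all 11 alternatives. Depth is unknown, so no counting error could be given for the low values of Klf2, Klf4, Klf9, Klf10 and Klf11.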
